A study of Mus musculus with 2 samples.

Results

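In C2C12 cells, 32 of 21829 genes were listed at exactly 0 FPKM in one library and at 2 FPKM or more in the other. FPKM, fragments per kilobase of transcript scaled to sequencing depth, is a level already divided by transcript length. Of these genes, 18 were listed at 0 in the WT library and were present in the KO library, and 14 were listed at 0 in the KO library and were present in the WT library. The members were chosen by their FPKM in both libraries, so membership and these values are a description and were not tested. Myod1, Igfbp2 and Casd1 also met both limits and were left out of the set by name. Where a symbol was repeated, its row of higher mean entered. In bulk RNA, fewer cells of a kind and less RNA per cell cannot be told apart.

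C2C12 is an immortalised mouse myoblast line, grown here as undifferentiated cells in serum-containing medium. The data are 1 library from WT cells and 1 library from Gne KO cells. The KO cells were made from the same line with Cas9 and carry a T-A base insertion in exon 2 of Gne that ends the protein early. They were expanded from isolated single clones, so the genotype and the history of a clone cannot be told apart. Gne encodes the enzyme that starts sialic acid synthesis, and the study used the pair to ask what its loss does in muscle cells. With 1 library per line, no difference has a replicate check, and no test, p-value or error is given. The edited gene, Gne, stood at 6.67 FPKM in WT and at 7.34 FPKM in KO, so its RNA level does not tell which library carries the edit.

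A gene is read as silent in a cell line when its promoter gives no transcripts that reach the library. Muscle precursors keep most organ-specific genes silent and express a characteristic set of transcription factors, adhesion molecules and surface receptors. Promoters of broadly used genes are usually rich in CG dinucleotides, whereas promoters of organ-specific genes are often poor in them and carry a TATA box. An exact 0 in a table without counts can also be a gene whose estimate failed or whose reads were assigned elsewhere. It is therefore given here only as a listed value. No fold change is given for a member, because the level against which it would be computed is 0.

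Promoter sequences of 6 members are shown as examples. Each holds the motif marked in it, so they do not stand for all windows of their direction. Windows without these motifs, such as that of Defb41, are not shown. They run from 250 bases before to 50 bases after a RefSeq start on GRCm38.p6, 5′ to 3′ on the strand of the gene. In the first pair, from organ-specific genes listed at 0 in WT, capitals mark the letters TATAAA, read on either strand. These are the letters of the TATA box core, but the distance to the start was not used. A match of the letters alone does not make a TATA box.
Kap (chr6:133853618-133853917, minus strand): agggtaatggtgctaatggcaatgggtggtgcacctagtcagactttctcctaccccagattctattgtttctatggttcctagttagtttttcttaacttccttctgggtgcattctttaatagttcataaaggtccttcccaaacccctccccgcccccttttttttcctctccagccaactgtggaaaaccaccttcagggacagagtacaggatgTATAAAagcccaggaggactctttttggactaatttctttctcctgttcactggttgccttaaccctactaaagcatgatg
Sis (chr3:72967814-72968113, minus strand): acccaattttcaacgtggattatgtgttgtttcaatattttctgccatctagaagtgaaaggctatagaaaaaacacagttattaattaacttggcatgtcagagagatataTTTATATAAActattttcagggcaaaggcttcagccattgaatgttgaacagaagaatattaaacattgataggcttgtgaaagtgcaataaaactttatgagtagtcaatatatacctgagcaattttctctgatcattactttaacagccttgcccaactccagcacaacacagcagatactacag
In the next window, from a gene of the mitochondria that was listed at 0 in WT, capitals mark GGGCGG, the GC box, read on either strand.
Smim20 (chr5:53266856-53267155, plus strand): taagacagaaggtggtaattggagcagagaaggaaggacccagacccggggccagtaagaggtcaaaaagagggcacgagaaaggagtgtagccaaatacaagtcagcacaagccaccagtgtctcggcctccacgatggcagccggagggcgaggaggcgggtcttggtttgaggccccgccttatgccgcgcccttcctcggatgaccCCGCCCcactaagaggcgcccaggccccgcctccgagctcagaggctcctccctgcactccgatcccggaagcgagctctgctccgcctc
In the last 3 windows, from genes listed at 0 in KO, capitals mark CAGCTG, an E-box that reads the same on both strands.
Adgrg2 (chrX:160390440-160390739, plus strand): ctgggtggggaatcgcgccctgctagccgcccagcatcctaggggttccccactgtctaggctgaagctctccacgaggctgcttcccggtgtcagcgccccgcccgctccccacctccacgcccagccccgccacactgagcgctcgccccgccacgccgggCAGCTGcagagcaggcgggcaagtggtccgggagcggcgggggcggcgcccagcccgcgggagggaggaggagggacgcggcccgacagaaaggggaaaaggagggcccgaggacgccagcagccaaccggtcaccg
Hopx (chr5:77115074-77115373, minus strand): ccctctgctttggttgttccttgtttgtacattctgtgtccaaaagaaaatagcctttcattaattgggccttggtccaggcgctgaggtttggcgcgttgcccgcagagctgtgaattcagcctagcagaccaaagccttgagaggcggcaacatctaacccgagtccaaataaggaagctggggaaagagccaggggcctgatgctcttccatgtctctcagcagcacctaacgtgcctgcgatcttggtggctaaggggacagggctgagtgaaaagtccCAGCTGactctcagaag
Mest (chr6:30733256-30733555, plus strand): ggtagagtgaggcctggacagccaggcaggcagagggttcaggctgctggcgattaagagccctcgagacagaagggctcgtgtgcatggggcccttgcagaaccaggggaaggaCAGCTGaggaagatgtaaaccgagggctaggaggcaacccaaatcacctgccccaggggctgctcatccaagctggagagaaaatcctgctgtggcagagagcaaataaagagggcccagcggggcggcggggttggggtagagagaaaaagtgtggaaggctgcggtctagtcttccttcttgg

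The 47 measured genes of a list that every cell uses had a lowest level of 14.7 FPKM in both libraries, and 0 of them were listed at 0. Myoblast markers differed in both directions, and more of them passed 2-fold downwards in KO than upwards. Of 23 myoblast markers, 13 had a mean of at least 1 FPKM, and on the log2(FPKM + 1) scale 4 of these were over 2-fold lower in KO and 1 was over 2-fold higher. The median log2((KO + 1)/(WT + 1)) of these 13 was -0.72. Myod1, the defining myogenic factor, was at 59.97 FPKM in WT and listed at 0 in KO. Also lower in KO were Des, at 97.6 and 3.84 FPKM, Cdh15, at 16.6 and 0.701 FPKM, and Chrna1, at 15.3 and 0.917 FPKM. Myf5, the 1 over 2-fold higher, was at 9.14 and 20.3 FPKM. Summed levels of the myoblast list were 443 FPKM in WT and 273 FPKM in KO. Endothelial markers summed to 0.019 FPKM in WT and 0.028 FPKM in KO, and 6 of 11 leukocyte markers, Ptprc and Adgre1 among them, were listed at 0 in both libraries. The leukocyte list summed to 23.0 and 20.1 FPKM, most of it Cd14. Neural and glial markers summed to 112 FPKM in WT and 1.67 FPKM in KO. Of these, Stmn2 was at 89.3 FPKM in WT and 0.064 FPKM in KO, and Tubb3 was at 18.0 and 0.997 FPKM. The mean reached 1 FPKM for 11 fibroblast and mesenchymal markers, with a median log2((KO + 1)/(WT + 1)) of 0.17. On the log2(FPKM + 1) scale 3 of them were over 2-fold higher in KO and 1 over 2-fold lower. Col1a1 was at 9.66 and 273 FPKM and Postn at 0.44 and 33.9 FPKM. Fbln2, the 1 lower, was at 89.2 and 40.5 FPKM, and Prrx1 was level, at 72.9 and 73.0 FPKM. The whole list of 18 summed to 11563 and 12607 FPKM, most of it S100a4. Adipocyte markers summed to 16.5 FPKM in WT and 40.6 FPKM in KO, with Lpl at 0.893 and 17.8 FPKM and Cebpa at 5.4 and 13.1 FPKM. Pparg was at 10.2 and 9.31 FPKM, and 4 of the 8 adipocyte markers, Adipoq and Plin1 among them, were listed at 0 in both libraries. The part of these differences in the membership of a gene was not tested.

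Exact zeros with a high partner were rare. The 18 genes listed at 0 in WT were 0.0825% of all genes and 0.182% of the 9870 genes at 2 FPKM or more in KO. The 14 genes listed at 0 in KO were 0.0641% of all genes and 0.142% of the 9855 genes at 2 FPKM or more in WT. Most zeros faced another low value. In all, 764 genes were listed at 0 in WT and above 0 in KO, and 735 of them were below 1 FPKM in KO, with a median of 0.031 FPKM. In the other direction 884 genes were listed at 0 in KO, and 858 of them were below 1 FPKM in WT, with a median of 0.03 FPKM.

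**Figure D1:**
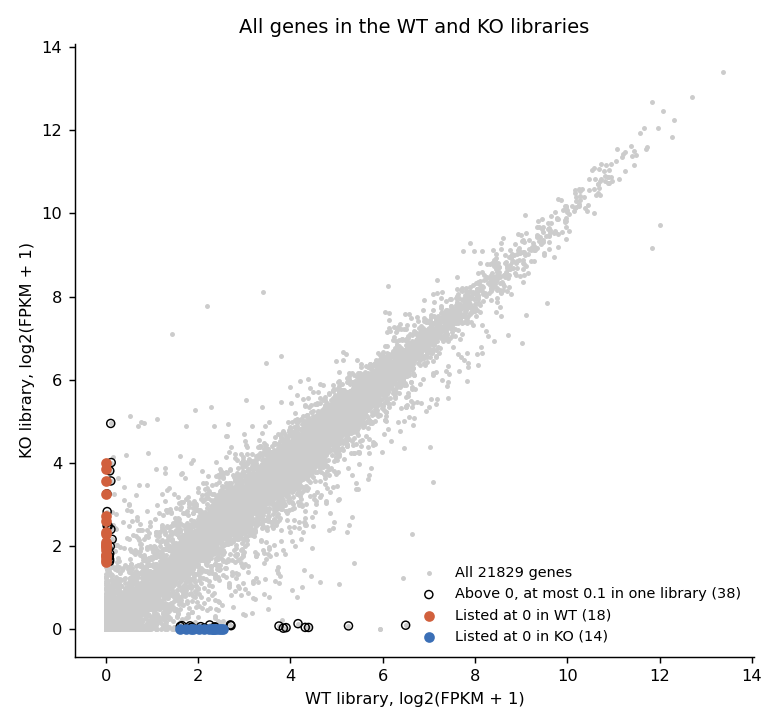
Levels of all 21829 genes in the WT library (horizontal) and the KO library (vertical), on the log2(FPKM + 1) scale. The 18 genes listed at 0 in WT lie on the vertical axis and the 14 listed at 0 in KO on the horizontal axis, and black circles are the 38 genes above 0 but at most 0.1 FPKM in one library and at 2 FPKM or more in the other.

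The partner values reached higher in one direction than in the other. Among genes listed at 0 in WT, the level in KO ran from 2.03 to 14.9 FPKM with a median of 3.18 FPKM, and 6 genes were at 5 FPKM or more. Among genes listed at 0 in KO, the level in WT ran from 2.03 to 4.78 FPKM with a median of 3.83 FPKM, and 0 genes were at 5 FPKM or more. Before Myod1 and Igfbp2 were left out, the second direction reached 60.05 FPKM, so its narrow range is in part set by the rule.

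**Figure D2:**
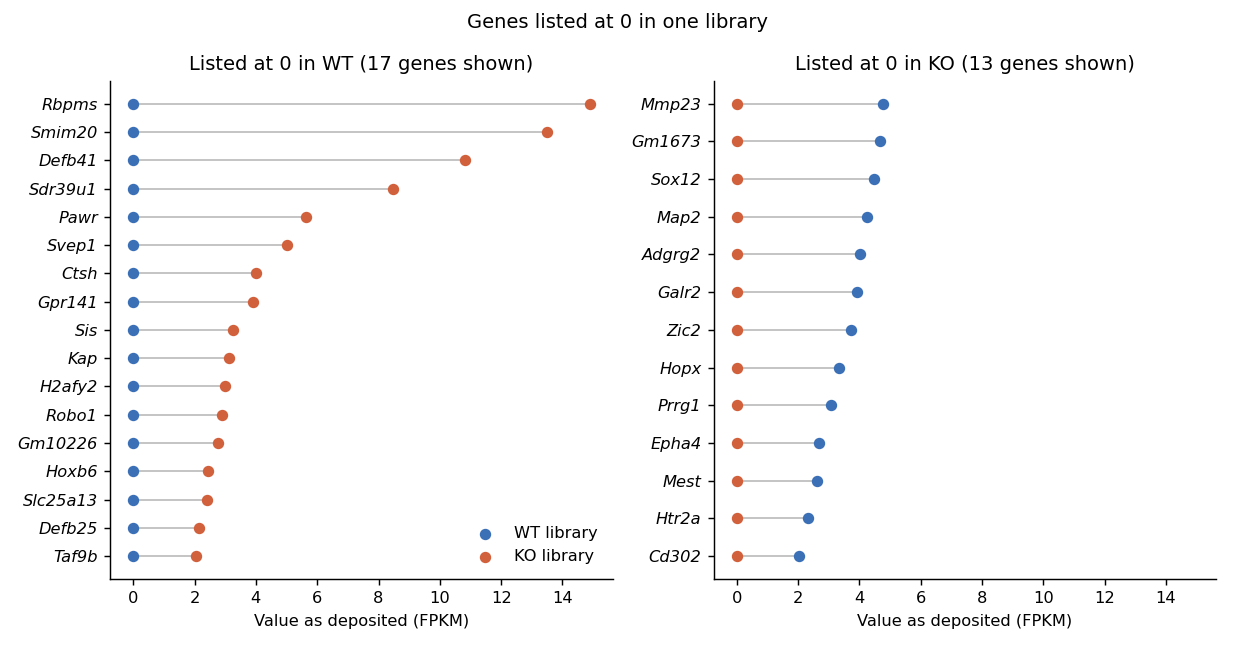
Level of each member reported by name in the WT library (blue) and the KO library (orange) in FPKM, on a linear axis starting at 0. On the left 3 genes, Rbpms, Smim20 and Defb41, exceed 10 FPKM in KO, whereas on the right no gene exceeds 4.78 FPKM in WT.

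The highest gene listed at 0 in WT was Rbpms, an RNA-binding protein that controls splicing in smooth muscle. It was listed at 0 in WT and at 14.9 FPKM in KO. Its relative Rbpms2 was at 8.04 FPKM in WT and 28.7 FPKM in KO, so the relative that was present in both libraries was also higher in KO. Rbpms lies on chromosome 8 of GRCm39 from 34272116 to 34420037. Gtf2e2, a general transcription factor subunit on the opposite strand, shares part of that span and was at 23.0 and 22.5 FPKM. Sdr39u1 and H2afy2, described further on, overlap in the same manner with Khnyn, at 5.39 and 4.50 FPKM, and Aifm2, at 9.38 and 8.94 FPKM.

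Genes of the mitochondria listed at 0 in WT were Smim20 and Slc25a13. Smim20 encodes a small membrane protein that takes part in assembly of cytochrome c oxidase, and it was listed at 0 in WT and at 13.5 FPKM in KO. Slc25a13, the citrin carrier that exchanges aspartate for glutamate across the inner membrane, was listed at 0 in WT and at 2.42 FPKM in KO. Its close relative Slc25a12 was level, at 13.6 FPKM in WT and 13.8 FPKM in KO. Of the 33 Slc25a relatives at 2 FPKM or more in either library, on the log2(FPKM + 1) scale 0 were over 2-fold higher in KO and 1, Slc25a43, was over 2-fold lower, at 4.17 and 1.33 FPKM.

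Among genes listed at 0 in WT, 4 are best known, as background, from epithelial organs. The epithelial marker list, which holds none of them, summed to 18.9 FPKM in WT and 6.22 FPKM in KO, nearly all of it Krt14. Defb41 and Defb25 encode beta-defensins, small antimicrobial peptides that are best known from the epididymis. Defb41 was listed at 0 in WT and at 10.8 FPKM in KO, and Defb25 at 0 and 2.15 FPKM. Of 42 measured Defb genes, 36 were listed at 0 in both libraries, as were 7356 of all 21829 genes. Defb28, Defb42 and Defb43 went the other way, at 0.461, 0.199 and 0.223 FPKM in WT and at 0 in KO. Defb48 was at 0 in WT and at 0.205 FPKM in KO. Sis, the sucrase-isomaltase of the intestinal brush border, was listed at 0 in WT and at 3.24 FPKM in KO. Kap, a secreted protein of kidney tubules, was listed at 0 in WT and at 3.11 FPKM in KO. The grouping by known role was made after the values were seen, with no share of such genes over the whole table.

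Defb25 shares its span with Rem1, on the opposite strand, which was at 16.1 FPKM in WT and 18.2 FPKM in KO. The library kits named in the sources keep strand, but the strand setting of the counting is not given in the sources used here, so reads of Defb25 and Rem1 cannot be told apart with certainty. Defb41 has no such measured partner. Its nearest measured neighbours, Defb18 and Tfap2d, were listed at 0 in both libraries.

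Surface and matrix genes listed at 0 in WT were Svep1, Gpr141 and Robo1. Svep1, a very large matrix protein that binds integrins, was listed at 0 in WT and at 5.02 FPKM in KO. Gpr141, an orphan G protein-coupled receptor, was listed at 0 and 3.90 FPKM. Robo1, a receptor for Slit guidance proteins, was listed at 0 in WT and at 2.90 FPKM in KO. Robo2, its neighbour on chromosome 16, went the same way at lower levels, from 0.169 FPKM in WT to 1.28 FPKM in KO. Among the ligands, which were looked up after the values were seen, Slit2 was at 2.57 FPKM in WT and 15.02 FPKM in KO, and Slit1 and Slit3 were listed at 0 in both.

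Nuclear genes listed at 0 in WT were H2afy2, Hoxb6 and Taf9b, all at the lower end. H2afy2 encodes macroH2A2, a histone variant found in repressed chromatin, and was listed at 0 in WT and at 2.99 FPKM in KO. H2afy, which encodes the other macroH2A histone, was at 49.5 and 62.0 FPKM. Taf9b, a subunit of the TFIID complex, was listed at 0 and 2.03 FPKM, and its relative Taf9 was at 8.70 and 9.51 FPKM. For both pairs the relative with the same kind of product was present in both libraries.

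Hoxb6, a homeobox factor of body patterning, was listed at 0 in WT and at 2.45 FPKM in KO. Of the 9 other Hoxb genes in the files, 4 were at 0 in WT and above 0 in KO, 3 were at 0 in both, and 0 were at 0 in KO and above 0 in WT. Of all 21829 genes, 764 were at 0 in WT and above 0 in KO. Hoxb3 was listed at 0 in WT and at 1.22 FPKM in KO, Hoxb4 at 0 and 0.718 FPKM, and Hoxb5 at 0.023 and 1.07 FPKM. Hoxb3, Hoxb4 and Hoxb5 are the 3 measured genes next to Hoxb6 on one side, whereas Hoxb7, Hoxb8 and Hoxb9 on the other side were all below 0.1 FPKM in both libraries.

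Other genes listed at 0 in WT encode enzymes and a regulator of cell death. Sdr39u1, a member of the short-chain dehydrogenase family, was listed at 0 in WT and at 8.47 FPKM in KO. Pawr, a protein that promotes cell death, was listed at 0 and 5.62 FPKM. Ctsh, a lysosomal cysteine protease, was listed at 0 and 4.00 FPKM. Gm10226, a predicted gene with no match in the reference tables used here, was listed at 0 and 2.75 FPKM.

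Among genes listed at 0 in KO, several act in the nucleus. Sox12, a SoxC transcription factor, was at 4.47 FPKM in WT and listed at 0 in KO. The other SoxC genes were present in both libraries, with Sox4 at 46.6 FPKM in WT and 32.7 FPKM in KO and Sox11 at 5.87 and 5.18 FPKM. Hopx, an atypical homeodomain protein that does not bind DNA, was at 3.33 FPKM in WT and listed at 0 in KO.

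Zic2, a zinc finger transcription factor, was at 3.73 FPKM in WT and listed at 0 in KO. The adjacent family member Zic5 showed the same pattern at a lower level, 0.546 FPKM in WT and 0 in KO. Zic1, on another chromosome, was at 6.98 and 10.8 FPKM, so the family did not share 1 pattern.

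Genes listed at 0 in KO also included receptors at the cell surface. Adgrg2, an adhesion G protein-coupled receptor known from the epididymis, was at 4.02 FPKM in WT and listed at 0 in KO. Its relatives were not uniform: Adgrg1 was at 7.42 FPKM in WT and 1.86 FPKM in KO, Adgrg3 at 28.01 and 5.93 FPKM, and Adgrg6 at 5.51 and 19.7 FPKM. Galr2, a receptor for the neuropeptide galanin, was at 3.93 FPKM in WT and listed at 0 in KO. Htr2a, a serotonin receptor, was at 2.33 FPKM in WT and listed at 0 in KO. Epha4, a receptor tyrosine kinase for ephrins, was at 2.68 FPKM in WT and listed at 0 in KO, and Epha2, the highest Epha gene, was at 46.5 and 37.3 FPKM. Cd302, a C-type lectin receptor, was at 2.03 FPKM in WT and listed at 0 in KO.

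The other 5 genes listed at 0 in KO included the highest of that direction. Mmp23, a membrane-anchored metalloprotease, was at 4.78 FPKM in WT and listed at 0 in KO. Its relatives Mmp14, at 228 and 226 FPKM, and Mmp11, at 28.4 and 26.4 FPKM, were level, and Mmp19 was at 5.34 FPKM in WT and 18.0 FPKM in KO. Map2, a microtubule-associated protein typical of neurons, was at 4.25 FPKM in WT and listed at 0 in KO, and it was the only member on any of the 10 marker and control lists used here, that of neural markers. Map4, the broadly expressed relative, was at 81.1 and 70.2 FPKM. Prrg1, a membrane protein with a Gla domain, was at 3.07 FPKM in WT and listed at 0 in KO. Gm1673, a predicted protein-coding gene, was at 4.67 FPKM in WT and listed at 0 in KO.

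Mest, an imprinted gene expressed from the paternal copy, was at 2.61 FPKM in WT and listed at 0 in KO. Copg2, whose span overlaps that of Mest on the opposite strand, was at 10.1 FPKM in WT and 14.7 FPKM in KO.

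The limit of 2 FPKM fell in a continuous range of values. In WT the zeros just inside were Defb25 and Taf9b, and those just outside were Rftn1 at 2.00 FPKM (1.999 as deposited), Gnpda2 at 1.93 FPKM and Lmbr1 at 1.83 FPKM in KO. In KO the zeros just inside were Mest, Htr2a and Cd302, and those just outside were Man1a and Megf6, both at 1.81 FPKM, and Serpinb9e at 1.75 FPKM in WT. In each direction 10 genes lay between 1 and 2 FPKM.

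The depth behind these values was estimated from the low end of the files. In protein-coding genes with a single annotated transcript, the product of FPKM and transcript length in kilobases piled up at 0.0368 in WT and 0.0426 in KO, which is read as the worth of 1 fragment. If the values are FPKM, this corresponds to about 27200000 fragments in WT and 23500000 in KO. With the annotated length of its canonical transcript, each member then rested on about 15 to 1370 fragments in KO for the 17 genes of known length listed at 0 in WT, with a median of 239. For the 13 such genes listed at 0 in KO, the range in WT was 75 to 1122 fragments and the median 350. Svep1 had about 1370 and Map2 about 1122, whereas Defb25, with a short transcript, had about 15. These numbers are approximate, since the length used by the authors is not known, and they are least certain for short transcripts such as Defb41 and Defb25.

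On the same estimate, and for members of known length, a single fragment would have been listed at 0.00316 to 0.186 FPKM in WT for those at 0 there. For those at 0 in KO it would have been listed at 0.00422 to 0.0338 FPKM there. All of these lie above the smallest printed step of 3 decimals, so a whole fragment assigned to these genes would not have been rounded to 0. Values worth less than 1 fragment on this estimate did occur, about 0.17 for Gm14288 and 0.85 for Aim2 in WT. A small part of a fragment could therefore still have been listed at 0. Genes above 0 but at most 0.1 FPKM in one library and at 2 FPKM or more in the other show what lies next to the set. There were 18 with the low value in WT, which held a median of about 5.31 fragments there, and 20 with the low value in KO, which held a median of about 2.65 fragments there. Plac8, at 0.074 and 29.8 FPKM, Stmn2, at 89.3 and 0.064 FPKM, and Cd24a, at 19.98 and 0.025 FPKM, are of this kind.

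**Figure D3:**
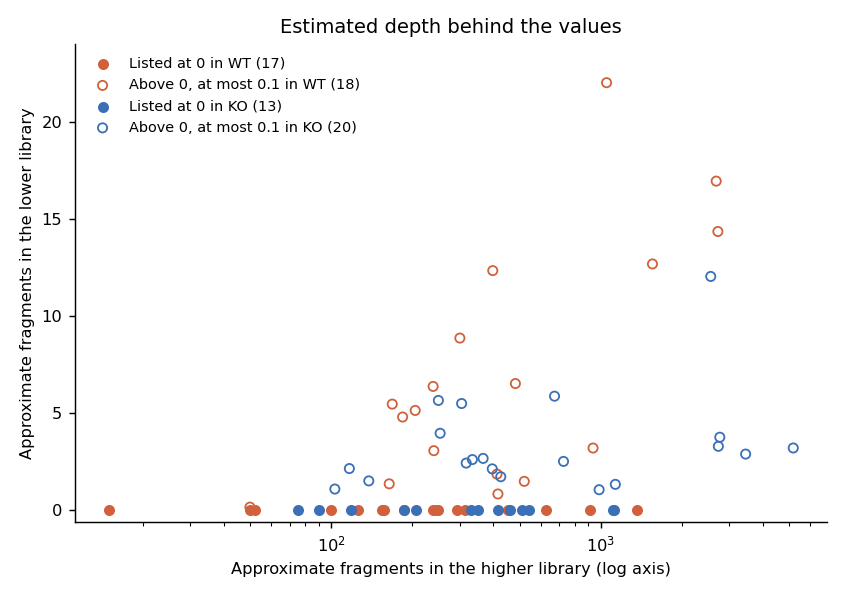
Approximate number of fragments in the higher library (horizontal, log axis) and in the lower library (vertical) for the 17 and 13 members with a known transcript length (filled, at 0) and the 38 genes above 0 but at most 0.1 FPKM in one library (open). The filled points span 15 to 1370 fragments on the horizontal axis and the open points about 50 to 5189, and the open points hold from below 1 to 22 fragments on the vertical axis.

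Nearly all members were protein-coding by annotation, as were nearly all genes measured. Of the 18 genes listed at 0 in WT 17 were matched and protein-coding, as were all 14 listed at 0 in KO. The share was 99.3% of genes at 2 FPKM or more in either library and 95.7% of all genes. The median canonical transcript was 2612 bases for genes listed at 0 in WT and 3949 bases for genes listed at 0 in KO. It was 3502 bases for all genes at 2 FPKM or more in KO, 3492 bases for those in WT and 2978 bases for all genes of known length. On the X chromosome lay 3 of the 13 genes with a position listed at 0 in KO, Adgrg2 and Prrg1 among them. Of the 17 with a position listed at 0 in WT, 1 lay there, Taf9b. These are 23.1% and 5.88%, against 4.43% of all genes with a position. The share was 3.15% of genes at 2 FPKM or more in WT and 3.09% of those in KO, and the difference was not tested. All 8 Y-linked genes on the list were listed at 0 in both libraries.

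Most neighbouring genes did not differ between the libraries by 2-fold. The nearest 3 measured genes on each side were taken for 17 genes listed at 0 in WT, and 36 of these neighbours had a mean of at least 1 FPKM. Their median log2((KO + 1)/(WT + 1)) was 0.055, where 0 passed 2-fold upwards in KO and 1 downwards. For the 14 genes listed at 0 in KO, 50 neighbours had a median of 0.014, where 0 passed it upwards and 3 downwards. Over the 10542 genes whose mean reached 1 FPKM, the median was 0.0061, 2.84% passed 2-fold upwards in KO and 3.43% downwards. Of the neighbours counted, 0 were themselves members.

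Single neighbours still stood apart, and not always in the direction of the member. Crispld1, 3 measured genes from Defb41, was at 5.55 FPKM in WT and 0.056 FPKM in KO, the opposite of Defb41. Pla2r1, near Cd302, was at 2.67 FPKM in WT and 0.596 FPKM in KO, and Fndc10, near Mmp23, was at 6.13 and 2.48 FPKM. Sox12 and Defb25, on chromosome 2 with 12 measured genes between them, had opposite zeros. Their spans on GRCm39 run from 152235531 to 152239983 and from 152464267 to 152478804, and none of the 12 genes between had a mean of 1 FPKM. Slc25a13 lies on chromosome 6 with 9 measured genes between it and Casd1, which was listed at 0 in WT and at 13.3 FPKM in KO. Of those 9 genes, the 5 whose mean reached 1 FPKM had a median log2 difference of -0.50, away from the direction of Casd1 and Slc25a13.

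**Figure D4:**
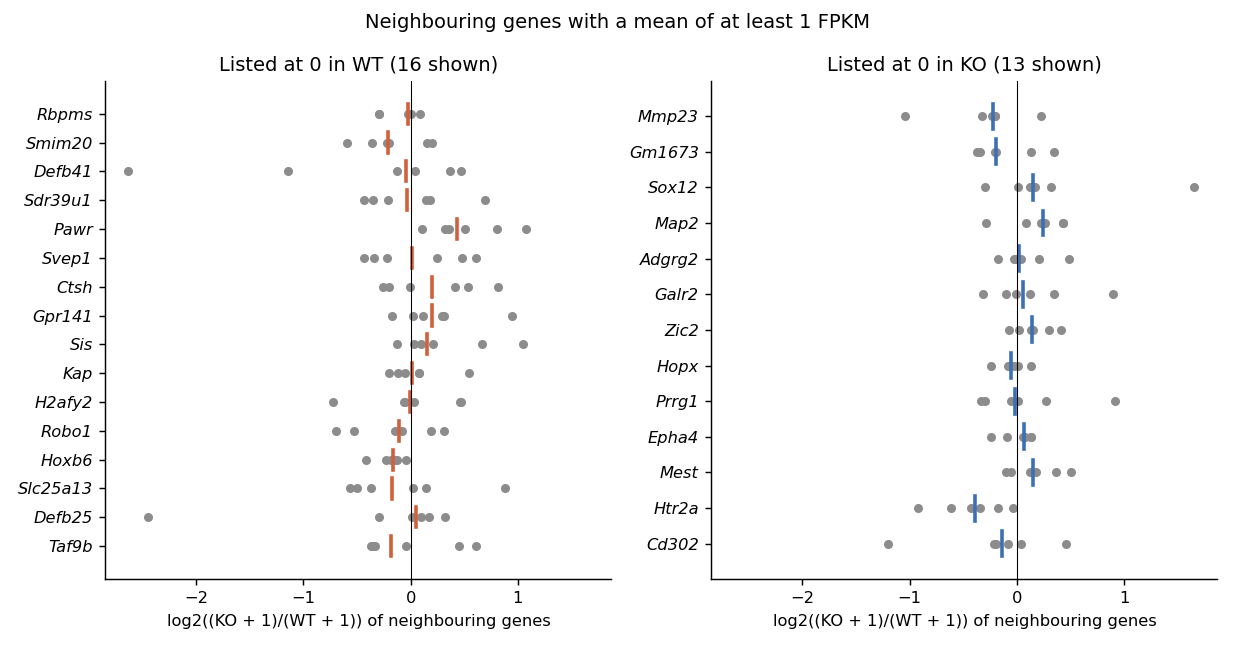
Difference between the libraries, log2((KO + 1)/(WT + 1)), of the genes nearest to each placed member reported by name, 3 on either side, counted among genes whose mean reached 1 FPKM only (grey points), with their median (coloured bar). All medians lie between -0.38, at Htr2a, and 0.43, at Pawr. Single points farther out include Crispld1 beside Defb41, Myf5 beside Pawr, Ppm1l beside Sis, and the pair Sox12 and Defb25 beside each other.

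Promoter windows were found for 12 genes in each direction, and the other 8 members, among them Rbpms, Zic2 and Hoxb6, had no entry. For genes with several starts, which were Sdr39u1, Taf9b, Mmp23, Hopx, Prrg1 and Mest, the first one listed was used. Their ratios and motifs hold for that start only, and Hopx, Prrg1 and Mest are among the genes counted below for a low ratio and for CAGCTG. CG dinucleotides were scored as the ratio of their observed number to that expected from base composition. The ratio was below 0.4 in 5 of 12 genes listed at 0 in WT and 6 of 12 listed at 0 in KO, that is 41.7% and 50% of them. It was below 0.4 in 8.78% of genes at 2 FPKM or more in KO and 8.73% of those in WT, but in 37.6% of all genes with a window, whatever their level, and in 51.4% of all windows. Its median was 0.589 and 0.473 in the members, 0.80 in either expressed background and 0.595 over all genes. Defb41 had 0 CG dinucleotides and 29.7% GC, and Kap, shown above, had 1 and 44.7% GC. At the other end stood Sox12, with 47 CG dinucleotides and 76.7% GC, and Map2, with 37 and 77.7% GC. The set thus held CG-poor and CG-rich promoters in both directions.

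The letters TATAAA, read on both strands, were present in 4 of 12 windows of genes listed at 0 in WT, those of Svep1, Gpr141, Sis and Kap, and in 0 of 12 of the other direction. They were present in 6.30% of genes at 2 FPKM or more in KO, 6.22% of those in WT and 13.6% of all 32851 promoter windows. In Kap the match begins 31 bases before the start, in Svep1 42 bases and in Gpr141 218 bases before it. In Sis matches on both strands overlap and begin 138 bases before the start. The letters CAGCTG were present in 1 of 12 windows of genes listed at 0 in WT, that of Taf9b, and in 5 of 12 of genes listed at 0 in KO, those of Gm1673, Adgrg2, Hopx, Prrg1 and Mest. They were present in 13.9% of genes at 2 FPKM or more in KO, 13.8% of those in WT and 16.3% of all windows. In the sequences shown above the match begins 87 bases before the start in Adgrg2 and 135 bases before it in Mest, and it lies after the start in Hopx. GGGCGG was present in 5 and 8 of the 12 windows, against 68.6% and 68.9% in the expressed backgrounds. It was present in 47.7% of all genes with a window and in 35.7% of all windows. CCAAT was present in 4 of 12 in each direction, against 39.3% and 39.2% in the expressed backgrounds and 37.4% of all windows. These are 4 motifs in 24 windows and were not tested, and a match is not a bound site.

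**Figure D5:**
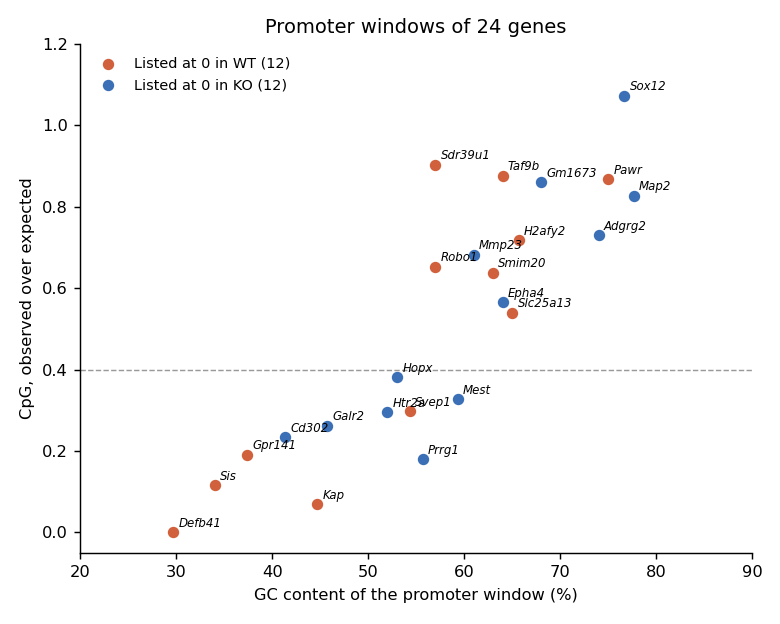
GC content (horizontal, percent) and ratio of observed to expected CG dinucleotides (vertical) of the 300 bases around the start, for 12 genes listed at 0 in WT (orange) and 12 listed at 0 in KO (blue). The dashed line marks a ratio of 0.4, below which lie 5 orange and 6 blue points, from Defb41 at 0 to Hopx at 0.38.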

How the data were processed

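The authors deposited 1 value per gene symbol for each of the 2 libraries, taken here as FPKM, which the authors made with RSEM. No unit stands with the values, and FPKM was inferred from their totals, 568543 in WT and 574253 in KO, and from steps in low values that follow transcript length. A TPM table restricted to these genes cannot be told apart. The study's methods give GRCm39 as the genome, whereas the submitters' processing notes list Trim Galore 0.6.6, STAR 2.7.9a, RSEM 1.3.3 and GRCm38. The labels and the methods also name different library kits and sequencers. How a value of 0 was written is not given in the sources used here.

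Of 21853 rows, 24 repeated a symbol. Members and lists were chosen with earlier results of these data known. Named genes were the 15 highest members per direction, members on a list, the 3 genes on either side of the limit, and relatives and neighbours of the 5 highest members. Relatives and neighbours of other members, marker genes, ligands, pathway genes, genes near zero, the role groups and the motifs were chosen after their values were seen. Some genes, members among them, are counted but not reported here by name. Relatives share the symbol up to its last number. RefSeq GRCm38.p6 gave the type of 21264 genes and the order of neighbours, and GENCODE vM39 on GRCm39 gave positions and transcript lengths of 19691. The worth of 1 fragment was the peak, in bins of 0.002, of FPKM times length, with settings chosen after the low values were seen. The code for the selection and for this estimate was run on simulated data. The planted zeros met the limits of the rule, so that run checks the code only. The simulated estimate used genes with a single annotated transcript, so the fragment numbers of members with several transcripts were not tested. With 1 library per line no model was fitted. The alternatives were other limits, scalings, pseudocounts and neighbour rules. Tables were handled in pandas 2.3.3 under Python 3.11.15, with scipy 1.17.1 for intervals and matplotlib 3.10.9 for the plots.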

Additional observations from a re-analysis of the deposited data

How the results depend on the processing

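No paired analysis was possible because each line has a single library and nothing was tested, and for the same reason no library could be left out. The number of genes listed at 0 in WT was 18 and became 28 with a lowest partner value of 1 FPKM and 6 with 5 FPKM. The number listed at 0 in KO was 14 and became 24 and 0 at these limits, so that gene type and length could not be given for that direction at 5 FPKM. Counting values of at most 0.1 as zero gave 36 and 34 genes, and at most 0.01 gave 19 and 14. Scaling each library to a common total of 1000000, which lowers the limit, gave 27 and 22. Summing repeated symbols or scaling by the median of ratios, a factor of 1.0046, moved neither count. Restriction to protein-coding genes gave 17 and 14. The genes above 0 but at most 0.1 FPKM numbered 18 and 20, and 7 and 12 at most 0.05 FPKM. The neighbour medians, 0.055 and 0.014, ran from -0.012 to 0.073 over 10 alternatives and crossed 0 for genes listed at 0 in KO. Depth limits the members with short transcripts most, Defb25 with about 15 fragments, Defb41 with 50 and Kap with 52.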
